A study of Rattus norvegicus with 18 samples.

Results

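The antigen presentation genes described here are 9 genes chosen by name: Cd74, RT1-Da, RT1-Db1, RT1-Ba, RT1-Bb, B2m, Tap1, Tap2 and Tapbp. All 9 were on the array, out of 10411 genes with a symbol, and were read by 14 probe sets, of which 13 passed the filter on low signals. The exception was the second Tap1 probe set, 1375379_at, at signals of 41.4 to 142 over the 18 arrays. The study followed warm ischemia and reperfusion of the rat lung with Affymetrix 230A microarrays. Male Sprague-Dawley rats, an outbred stock, were anesthetized and ventilated, and the left lung hilum was clamped for 2 h. Left lungs were taken after 30 min of reperfusion (n = 3) or after 3 h (n = 3). The unclamped right lungs were collected at both times too (n = 3 each). Left and right lungs may come from the same rats, and the main tests treated each lung as separate. The controls were lungs of 6 rats that were killed without this procedure (n = 6). The side of the control lungs is not given, clamp and side cannot be told apart between left and right lungs, and no lung was taken between the clamp and reperfusion. Ages are not given. RNA came from whole lung, so fewer cells of a type and less RNA per cell cannot be told apart.

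Peptides are shown to T cells by a class I and a class II route, and the genes fall on both. On the class I route, the transporter formed by Tap1 and Tap2 moves peptides into the endoplasmic reticulum, tapasin (Tapbp) holds empty class I molecules beside it, and B2m is the light chain of the finished molecule. On the class II route, RT1-Da with RT1-Db1, and RT1-Ba with RT1-Bb, encode the alpha and beta chains of the rat's class II molecules, and Cd74, the invariant chain, escorts them to the compartment where peptide is loaded. In the lung, dendritic cells, macrophages, B cells and the alveolar type II epithelium carry class II molecules, while nearly all nucleated cells carry class I. The RT1 complex is the rat's major histocompatibility complex. It is highly polymorphic, and a probe set designed on 1 allele can read another allele weakly.

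Both groups carry known control elements near their start sites. Class II promoters hold an X box and a Y box, read by a complex that recruits the class II transactivator Ciita. Class I genes respond to interferon through an interferon-stimulated response element and to NF-kappaB through a kappaB site. RefSeq promoter sequences of the GRCr8 assembly, from 250 bases before to 50 after the start site, were found for all 9 genes. The letters searched, on both strands, were CTGATTGG for the Y box, GCAACNG for the X box, GAAA and again GAAA with any 2 bases between for the interferon element, and GGGA then TTTCC with any 1 base between for the kappaB site. They were chosen after these promoters had been read. The 4 class II promoters are shown because all 4 held the Y box letters and 3 of them the X box letters, in capitals below and all on the plus strand of the gene.
RT1-Da, chr20:4515318-4515376, plus strand: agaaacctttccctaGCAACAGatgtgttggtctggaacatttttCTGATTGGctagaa
RT1-Ba, chr20:4576966-4577024, plus strand: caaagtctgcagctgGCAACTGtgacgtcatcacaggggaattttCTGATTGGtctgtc
RT1-Db1, chr20:4560232-4560290, minus strand: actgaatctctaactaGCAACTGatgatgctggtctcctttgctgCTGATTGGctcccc
RT1-Bb, chr20:4604169-4604227, minus strand: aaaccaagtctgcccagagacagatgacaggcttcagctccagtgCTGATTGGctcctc

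Counted from the start site, the Y box letters began at position -52 in RT1-Da, -46 in RT1-Ba, -83 in RT1-Db1 and -64 in RT1-Bb. They were present in 3.50% of all 33469 RefSeq promoters of this length, and the X box letters in 12.2%. The 4 class I route genes are shown around the interferon element, which all 4 held. In Tap1 the interferon letters lie on the opposite strand, so the capitals show their reverse complement. In B2m the kappaB letters, on the opposite strand, also fall within the stretch shown. Tapbp held 2 overlapping matches, printed as 1 run of capitals.
B2m, chr3:129549160-129549209, plus strand: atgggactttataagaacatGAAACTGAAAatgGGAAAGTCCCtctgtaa
Tap1, chr20:4668635-4668684, minus strand: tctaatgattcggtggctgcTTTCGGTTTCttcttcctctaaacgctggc
Tap2, chr20:4652308-4652357, minus strand: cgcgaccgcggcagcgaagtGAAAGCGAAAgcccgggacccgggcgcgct
Tapbp, chr20:4967868-4967923, minus strand: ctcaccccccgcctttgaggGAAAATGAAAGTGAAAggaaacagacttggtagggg

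The interferon letters occurred in 3.92% of all promoters and the kappaB letters in 0.362%. Tap1 and Tapbp held the kappaB letters at positions -55 and -61, outside the stretches shown. No letters of the 4 motifs were found in the Cd74 window. These matches describe the reference sequence only.

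All values are MAS5 probe set signals that the authors had scaled to a trimmed mean of about 500.1 on every array, and differences are on the log2(signal + 25) scale. Where a gene had several probe sets, the one with the highest mean represented it. Differences were tested with limma over all 10533 probe sets that passed the filter, with Benjamini-Hochberg adjustment, and a gene was called at an adjusted p under 0.05. Median signals were 231.9 to 283.05 per array. The 10 measured alveolar type II markers summed to 40288 to 73260 over the 18 arrays. The actin 3' to 5' ratio, a sign of RNA quality, was 4.81 in left 30 min replicate 1, 2.30 in left 30 min replicate 3 and 2.93 in right 30 min replicate 3, against at most 1.78 in the other arrays. The labels do not say which replicates share a rat, so p-values measure the spread between these lungs.

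By the probe set that represents each gene, 8 of the 9 genes did not pass the test in any comparison. In left lungs at 30 min, 0 of 9 were called by limma, against 18.2% of the 7728 genes tested, and 3 had an unadjusted p under 0.05. At 3 h in left lungs, 1 of 9, Tap2, was called, against 37.6% of all genes. In right lungs 0 of 9 were called at 30 min, against 12.3% of all genes, and 0 of 9 at 3 h, against 20.4%. None of the 9 representing probe sets had an unadjusted p under 0.05 in either right lung group. The median difference of the 9 genes from control was -0.07, 0.10, -0.02 and 0.20 in left 30 min, left 3 h, right 30 min and right 3 h lungs, beside medians over all genes of -0.06, -0.13, -0.04 and -0.05. These 4 comparisons share the 6 control lungs. The plot of differences from control shows that the widest intervals belonged to RT1-Ba and RT1-Bb.

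**Figure D1:**
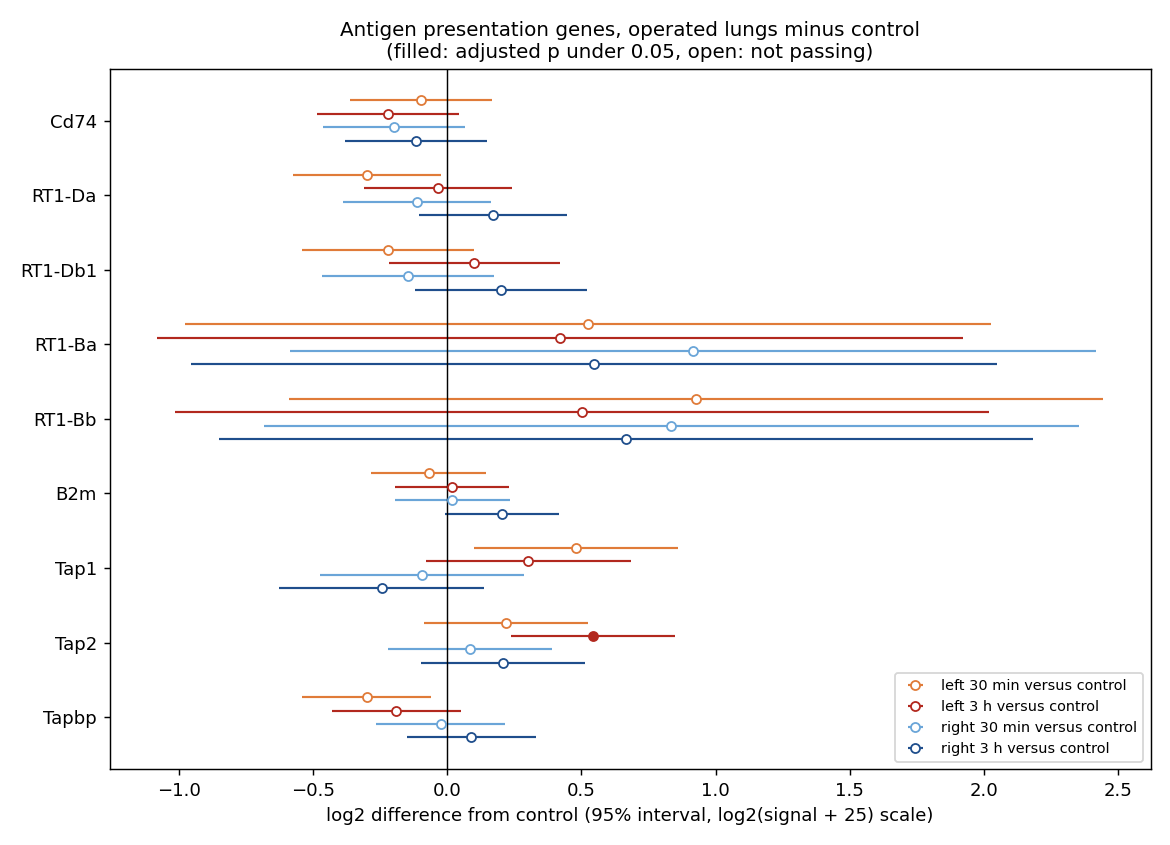
Difference from control of the 9 antigen presentation genes in left 30 min, left 3 h, right 30 min and right 3 h lungs (x axis, log2 scale), with 95% intervals from limma. Tap2 in left lungs at 3 h is the only filled point (adjusted p under 0.05), and the RT1-Ba and RT1-Bb intervals span more than those of the other genes.

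Cd74, the class II invariant chain, lay close to control in every group. Its signal was 9018, 7235 and 7630 in left lungs at 30 min, 6582, 7929 and 7399 in left lungs at 3 h, 7002, 7712 and 7479 in right lungs at 30 min, and 8943, 6122 and 8776 in right lungs at 3 h, against 7519 to 9457 (median 8514) in control lungs. All 4 groups overlapped the controls. The differences from control were -0.10, -0.22, -0.20 and -0.12 in the same order, none of them called. The largest, in left lungs at 3 h, had a 95% interval of -0.49 to 0.04 (adjusted p = 0.179).

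RT1-Da, the alpha chain of the D class II molecule, read 4619, 5121 and 3734 in left lungs at 30 min, 5088, 6443 and 4679 in left lungs at 3 h, 4397, 5126 and 5765 in right lungs at 30 min, and 6547, 5853 and 6150 in right lungs at 3 h, against 4726 to 6187 (median 5445) in control lungs. The groups overlapped. The lowest group mean was that of left lungs at 30 min, at -0.30 ± 0.13 (SE, adjusted p = 0.119). RT1-Db1, its partner chain, read by probe set 1370383_s_at, ranged from 1657 to 2937 over the 12 operated lungs and from 2011 to 3098 in control lungs. Its differences from control were between -0.22 and 0.20, none of them called. The _s_at ending marks a probe set that can read more than 1 transcript, so this level may include related class II chains.

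**Figure D2:**
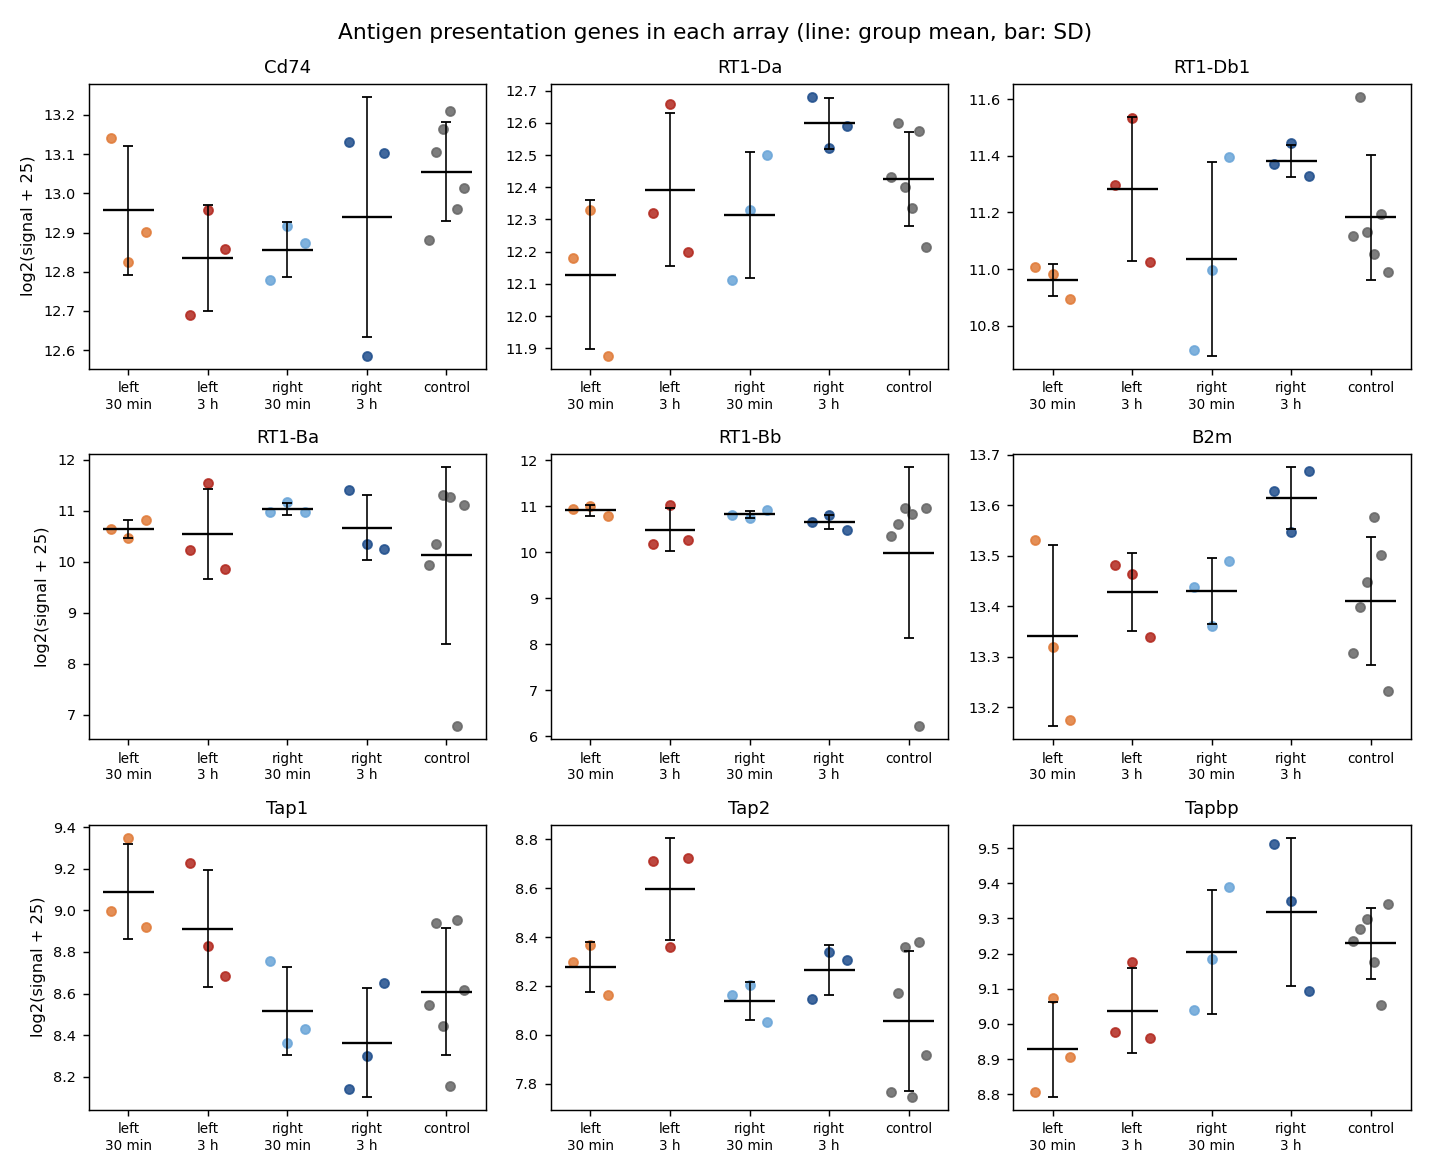
Signal of the 9 antigen presentation genes in each array, as log2(signal + 25), with left 30 min, left 3 h, right 30 min, right 3 h and control lungs from left to right. Points are arrays, lines are group means and bars are SDs, and the scale differs between panels. Control replicate 5 lies far below the other arrays in RT1-Ba and RT1-Bb, and 2 left lungs at 3 h have the highest Tap2 values, 395 and 398.

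One probe set each of RT1-Bb and RT1-Db1 placed the 18 arrays at separate levels, with lungs of the same group at both levels at 3 h and among the controls. RT1-Bb, the beta chain of the B class II molecule, read by probe set 1371033_at, had signals of 28.7, 28.5 and 37.5 in left lungs at 30 min, and 2138, 8.93 and 1997 in left lungs at 3 h. It had 49.7, 12.7 and 28.8 in right lungs at 30 min and 21.3, 1969 and 2356 in right lungs at 3 h. Control lungs read 2142, 2433, 53.2, 58.0, 3607 and 42.3. So 7 arrays lay at 1969 to 3607 and 11 at 8.93 to 58.0, with none between. The higher level held control replicates 1, 2 and 5, left 3 h replicates 1 and 3, and right 3 h replicates 2 and 3. All 6 lungs taken at 30 min were at the lower level. At 3 h the left lung at the lower level was replicate 2 and the right lung replicate 1.

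The same 7 arrays were the highest in 2 further class II probe sets. RT1-Db1 by probe set 1370382_at was at 376 to 908 in these 7 and at 35.5 to 103 in the other 11. RT1-Ba, the alpha chain paired with RT1-Bb, by probe set 1370822_at, placed the same 7 on top with a narrow gap, the 7th value being 1525 and the 8th 1397. The second probe sets of RT1-Bb and RT1-Ba showed another order and shared none of their 7 highest arrays with 1371033_at. RT1-Bb by 1371065_at read 49.2 in control replicate 5, against 1139 to 2069 in the other 17 arrays. RT1-Ba by 1377334_at read 84.3 in control replicate 5, against 905 to 2963 in the others. Control replicate 5 was thus the highest array for RT1-Bb by one probe set and the lowest by the other.

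**Figure D3:**
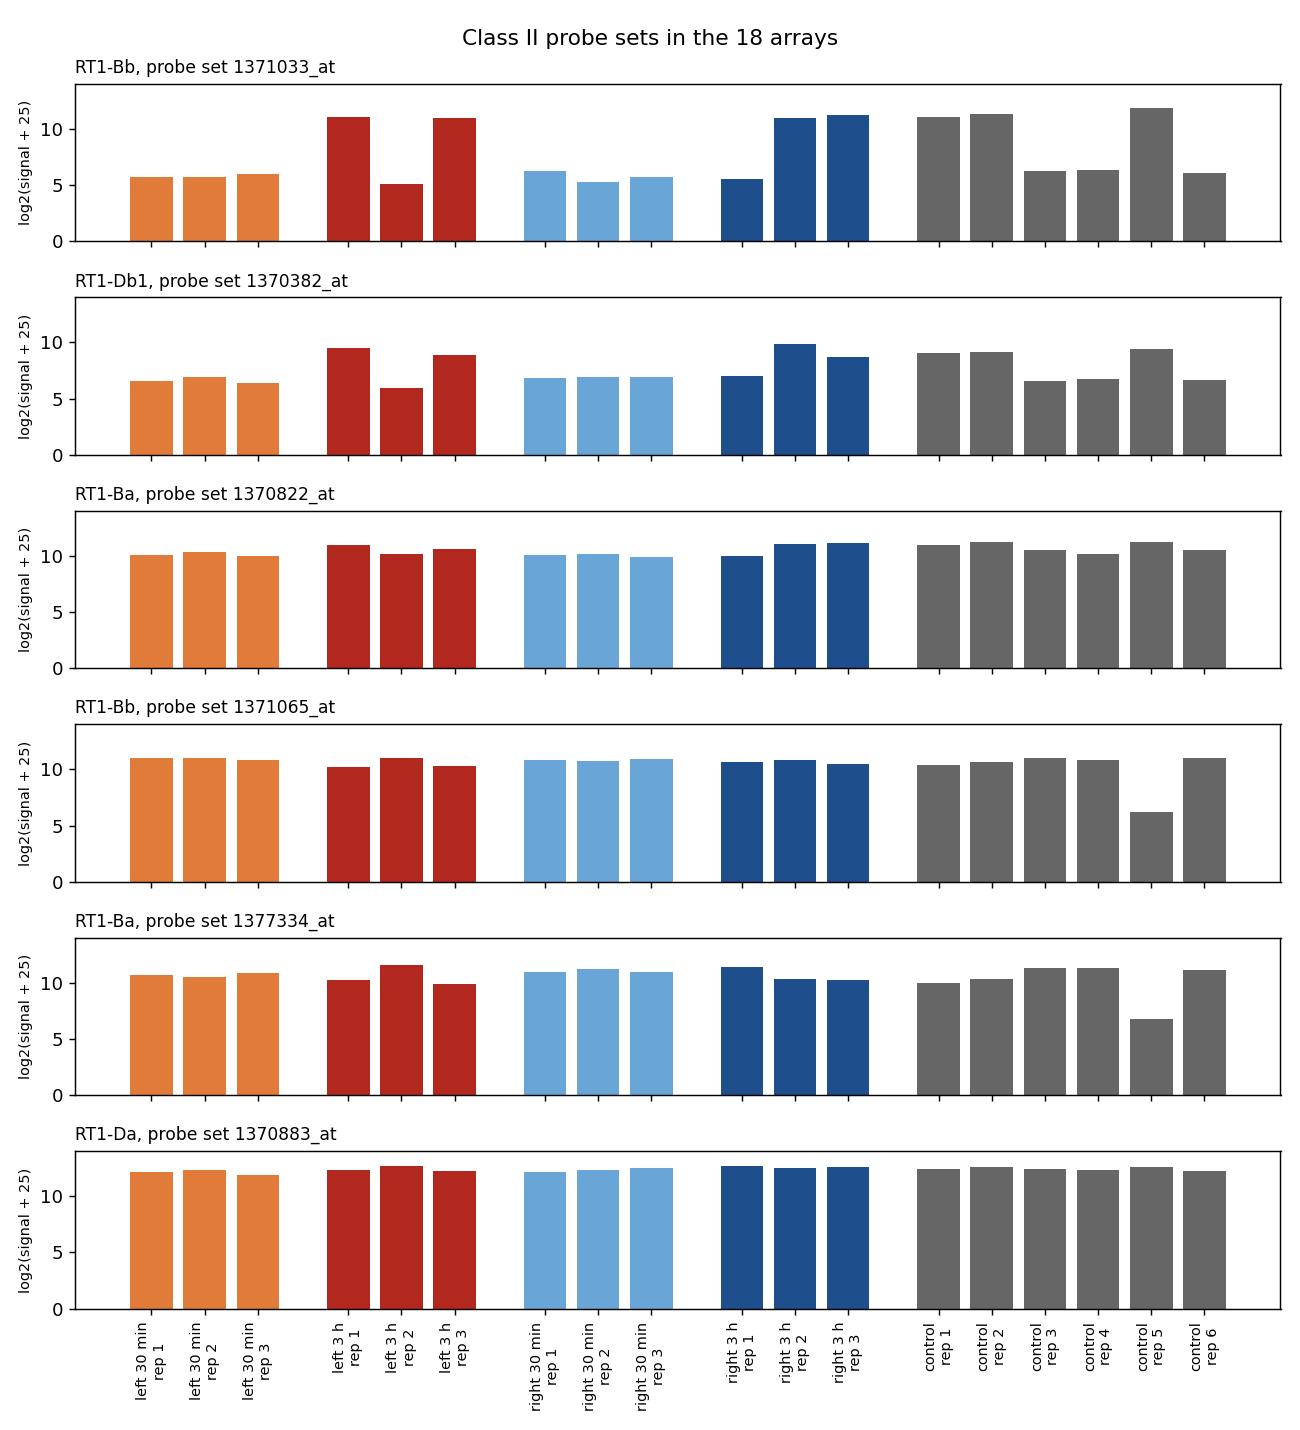
Signal of 6 class II probe sets in each of the 18 arrays, as log2(signal + 25), with left 30 min, left 3 h, right 30 min, right 3 h and control lungs from left to right. Each bar is 1 array. The upper 3 probe sets are highest in the same 7 arrays, RT1-Bb 1371065_at and RT1-Ba 1377334_at are lowest in control replicate 5, and RT1-Da is even across arrays.

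Within groups, RT1-Bb 1371033_at had the largest residual SD of all 10533 tested probe sets, 2.55 on the log2 scale, against a median of 0.215. RT1-Db1 1370382_at ranked 16th at 1.29, RT1-Bb 1371065_at 24th at 1.17 and RT1-Ba 1377334_at 25th at 1.16. Of the 20 probe sets with the largest residual SD, 7 had an RT1 symbol, out of 26 RT1 probe sets tested. RT1-Da (0.179), Cd74 (0.169) and B2m 1367595_s_at (0.115) were below the median SD. For RT1-Bb 1371033_at and RT1-Db1 1370382_at, the group means at 3 h and in controls average 2 levels. The RT1-Bb 1371033_at difference from control was -3.00 ± 1.56 in left lungs at 30 min (adjusted p = 0.188) and -3.08 ± 1.56 in right lungs at 30 min (adjusted p = 0.204), with 3 of 6 controls at the lower level themselves. Neither passed the test. RT1-Ba 1370822_at was -0.71 ± 0.26 in right lungs at 30 min (adjusted p = 0.0816), which passed at an adjusted p of 0.0479 without control replicate 4 (-0.83). For RT1-Ba and RT1-Bb no direction is given, because their probe sets had opposite signs at 30 min. The RT1 haplotypes of the rats are not in the labels and their part in these levels was not tested.

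Tap2, a subunit of the peptide transporter, rose in left lungs at 3 h. It read 395, 303 and 398 there, against 190 to 308 (median 240) in control lungs. Replicates 1 and 3 lay above every control, and replicate 2 lay within the control range. The difference was 0.54 ± 0.15 (SE), or 1.46-fold with a 95% interval of 1.18 to 1.80 (adjusted p = 0.00772). Without left 3 h replicate 1 it was 0.48 and the adjusted p 0.0506. In the other operated lungs Tap2 read 262 to 305 in left lungs at 30 min, 241 to 270 in right lungs at 30 min and 259 to 299 in right lungs at 3 h, and no difference from control was called. Left against right lungs at 3 h differed by 0.33 ± 0.17 (adjusted p = 0.314).

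Tap1, the other subunit of the transporter, read higher on the left than on the right at both times, and neither difference passed the test. At 30 min it read 486, 627 and 459 in left lungs, against 407, 304 and 320 in right lungs. At 3 h it read 574, 429 and 386 in left lungs, against 258, 290 and 377 in right lungs. The left and right values did not overlap at either time. The differences were 0.57 ± 0.21 at 30 min (adjusted p = 0.447) and 0.55 ± 0.21 at 3 h (adjusted p = 0.176). Control lungs, at 260 to 471 (median 358), overlapped the left lungs at both times. Against control, left lungs at 30 min differed by 0.48 ± 0.18 (adjusted p = 0.0696), which passed without control replicate 2 (0.55, adjusted p = 0.0472) or control replicate 5 (0.55, adjusted p = 0.0433).

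B2m, the class I light chain, was read by 2 probe sets that differed. By 1367595_s_at it had 11416, 11276 and 10334 in left lungs at 3 h, against 9600 to 12202 (median 10963) in control lungs, a difference of 0.02 ± 0.10 (adjusted p = 0.909). By 1371440_at it had 6215, 5933 and 5255 in left lungs at 3 h, against 4187 to 5363 (median 4802) in control lungs, and rose by 0.28 ± 0.11 (adjusted p = 0.0483). That call ended without any 1 of 7 of the 9 arrays compared, the exceptions being control replicate 3 and left 3 h replicate 3, at differences of 0.23 to 0.30, without the filter (adjusted p = 0.0626) and under quantile normalization (0.13, adjusted p = 0.285). The highest group by 1367595_s_at was right lungs at 3 h, at 12636, 11946 and 12991, with a difference of 0.20 ± 0.10 that was not called (adjusted p = 0.163).

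Tapbp, or tapasin, lay lower in left lungs without passing the test. It read 423, 514 and 454 in left lungs at 30 min, 479, 554 and 473 in left lungs at 3 h, 501, 557 and 646 in right lungs at 30 min, and 705, 628 and 521 in right lungs at 3 h, against 507 to 623 (median 585) in control lungs. Left lungs at 30 min differed from control by -0.30 ± 0.11 (adjusted p = 0.0715) and left lungs at 3 h by -0.19 ± 0.11 (adjusted p = 0.199). Left against right lungs differed by -0.28 ± 0.13 at 30 min (adjusted p = 0.581) and by -0.28 ± 0.13 at 3 h (adjusted p = 0.279).

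Between left and right lungs 0 of 9 genes were called by limma at 30 min, against 0.0518% of all genes, with 1 at an unadjusted p under 0.05, and 0 of 9 at 3 h, against 2.37%, with 2 at an unadjusted p under 0.05. These shares of all genes rest on few calls or on single arrays: without 1 array, 1 to 15 genes were called at 30 min, against 4, and 25 to 364 at 3 h, against 183. Between 3 h and 30 min 0 of 9 were called in left lungs (3.07% of all genes) and 0 of 9 in right lungs (0.194%), and none had an unadjusted p under 0.05. The left-right difference itself was not called as changed between the times for any of the 9 (0 of 9, against 0.233% of all genes), again with none at an unadjusted p under 0.05.

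Of the genes that act around class II, 18 of 28 listed were measured. Ciita, Nfya and Creb1 fell in all 4 groups against control, while Rfx5 and Nfyc, the other measured factors of class II promoters, named after their values were seen, were not called in any of them. Ciita, the class II transactivator, read 230, 248 and 217 in left lungs at 30 min, 282, 248 and 194 in left lungs at 3 h, 248, 202 and 203 in right lungs at 30 min, and 314, 210 and 202 in right lungs at 3 h, against 327 to 425 (median 340) in control lungs. All 12 operated lungs lay below all 6 controls. Ciita fell in all 4 groups, with log2 differences of -0.58, -0.54, -0.66 and -0.55 ± 0.14 in that order (adjusted p = 0.00758, 0.00641, 0.00489 and 0.0106). In right lungs at 3 h the call ended without replicate 2 or 3 (-0.47 to -0.44), and in left lungs at 30 min without the arrays of high actin ratio (-0.49, adjusted p = 0.216).

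Nfya, a subunit of the factor that binds the Y box shown above, read 194 to 372 over the operated lungs and 466 to 550 in control lungs. It fell in all 4 groups, with log2 differences of -0.77 ± 0.13 in left lungs at 30 min (adjusted p = 0.000781), -0.71 in left lungs at 3 h (0.000689), -0.86 in right lungs at 30 min (0.00045) and -1.19 in right lungs at 3 h (1.45e-05). Creb1, a factor that binds beside the X box, read 75.1 to 206 in operated lungs and 261 to 628 in control lungs. Apart from right 30 min replicate 1, at 206, the operated lungs lay below the filter signal of 173.5608. Creb1 was thus tested through its control values. Its log2 differences were -1.78, -1.72, -1.45 and -1.64 ± 0.26 in the same order, all called (adjusted p at most 0.0016). The operated and control values of both genes did not overlap, and the calls of both held without any single array. Both genes act at many promoters beside those of class II.

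Markers of cells that can carry class II were called in both directions. Over all genes, 8.64% rose and 9.52% fell in left lungs at 30 min, 13.5% rose and 24.1% fell in left lungs at 3 h, 5.93% rose and 6.33% fell in right lungs at 30 min, and 7.75% rose and 12.6% fell in right lungs at 3 h. Of 15 B cell markers 2 were measured, Cd79b and Cd37, and Fcer2 did not pass the filter. Cd79b fell in all 4 groups against control, with log2 differences of -1.72, -1.59, -1.60 and -1.24, and Cd37 fell in right lungs at 3 h, at -0.97 (adjusted p = 0.0321). The summed signal of both was 246 to 745 in left lungs at 30 min, 342 to 702 in left lungs at 3 h, 427 to 624.8 in right lungs at 30 min and 284 to 592 in right lungs at 3 h, against 569 to 1081 in control lungs. Of 10 measured alveolar type II markers, 0 rose and 1, 6, 1 and 2 fell in the same order. Of 5 measured dendritic cell markers, 0, 2, 1 and 1 rose and 1 fell, in right lungs at 3 h, and the summed signal was 1685 to 3004 over operated lungs, against 1315 to 1902 in control lungs. Of 7 measured macrophage and monocyte markers, 1, 1, 1 and 3 rose and 1, 1, 1 and 0 fell. Of 13 measured markers of T and NK cells, which are not among the class II carriers named above, 0 rose and 3, 6, 4 and 6 fell. The part of these cells in the Ciita values was not tested.

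The proteases that open the way for peptide on the class II route changed in both directions. In the whole list 0 rose and 7 fell in left lungs at 30 min, 4 rose and 3 fell in left lungs at 3 h, 1 rose and 4 fell in right lungs at 30 min, and 3 rose and 3 fell in right lungs at 3 h, beside the shares of all genes given above. The list medians were -0.16, -0.09, -0.11 and 0.04. Ctsl, cathepsin L, read 4829, 4101 and 3233 in left lungs at 3 h and 3575, 4406 and 3822 in right lungs at 3 h, against 2092 to 2521 in control lungs. It rose by 0.82 ± 0.13 (adjusted p = 0.000223) and 0.79 ± 0.13 (adjusted p = 0.000595), with no overlap. In right lungs at 30 min it rose by 0.48 (adjusted p = 0.026), a call that ended without control replicate 6 or right 30 min replicate 1 or 2 (0.37 to 0.48). Lgmn, legumain, which makes the first cuts in Cd74, rose by 0.35 in left lungs (adjusted p = 0.00813) and 0.34 in right lungs (adjusted p = 0.0177) at 3 h. These calls ended without left 3 h replicate 1 (0.29) and without right 3 h replicate 2 or 3 (0.30 each).

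Ctsd, cathepsin D, fell in both lungs at 30 min, while its differences of -0.28 in left and 0.10 in right lungs at 3 h were not called. It read 4027, 4062 and 3172 in left lungs at 30 min, against 5046 to 6392 in control lungs, a log2 difference of -0.64 ± 0.14 (adjusted p = 0.00449). In right lungs at 30 min it fell at -0.47 (adjusted p = 0.0359), a call that held without control replicate 6 and ended without any other single array (-0.50 to -0.44), without the filter, with arrays centred on their median and without the arrays of high actin ratio. In left lungs at 30 min, Cst3, a cathepsin inhibitor, fell at -0.35 (adjusted p = 0.0265) and RT1-DMb, a chain of the peptide editor of class II, at -0.39 (adjusted p = 0.0289). The Cst3 call ended without control replicate 3 or left 30 min replicate 2 or 3 (-0.34 to -0.26), the RT1-DMb call without control replicate 2 or 5 or any left 30 min array (-0.44 to -0.34), and both ended when arrays were centred on their median. Leaving out the 3 arrays of high actin ratio, which leaves 1 left lung at 30 min, ended the left 30 min calls of Ctsd, Cst3 and RT1-DMb. Ctsh, cathepsin H, rose by 0.33 in right lungs at 3 h (adjusted p = 0.0489), which held without control replicate 4 and ended without any other single array (0.28 to 0.37), without the filter and under quantile normalization.

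Cd40, the receptor through which T cells activate antigen-presenting cells, rose in left lungs at 3 h. It read 480, 309 and 300 there, 41.4, 110 and 110 in right lungs at 3 h, and 76.7 to 201 in control lungs. The right lungs at 3 h, and the controls apart from replicate 5, lay below the filter signal of 173.5608. The left lungs lay above every right and control lung. The difference was 1.33 ± 0.30 from control (adjusted p = 0.00287) and 1.83 ± 0.35 from right lungs (adjusted p = 0.0119), the difference from right lungs ending as a call without left 3 h replicate 1 or right 3 h replicate 1 (1.49 to 1.63). Cd40 was the 1 gene of this list called between left and right lungs at 3 h, against 2.37% of all genes. In the other 3 comparisons between operated groups 0 of 18 were called by limma, with 0, 4 and 5 at an unadjusted p under 0.05 for left against right at 30 min, left 3 h against 30 min and right 3 h against 30 min. Over all genes, 0.0518%, 3.07% and 0.194% were called in these comparisons, in the same order.

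**Figure D4:**
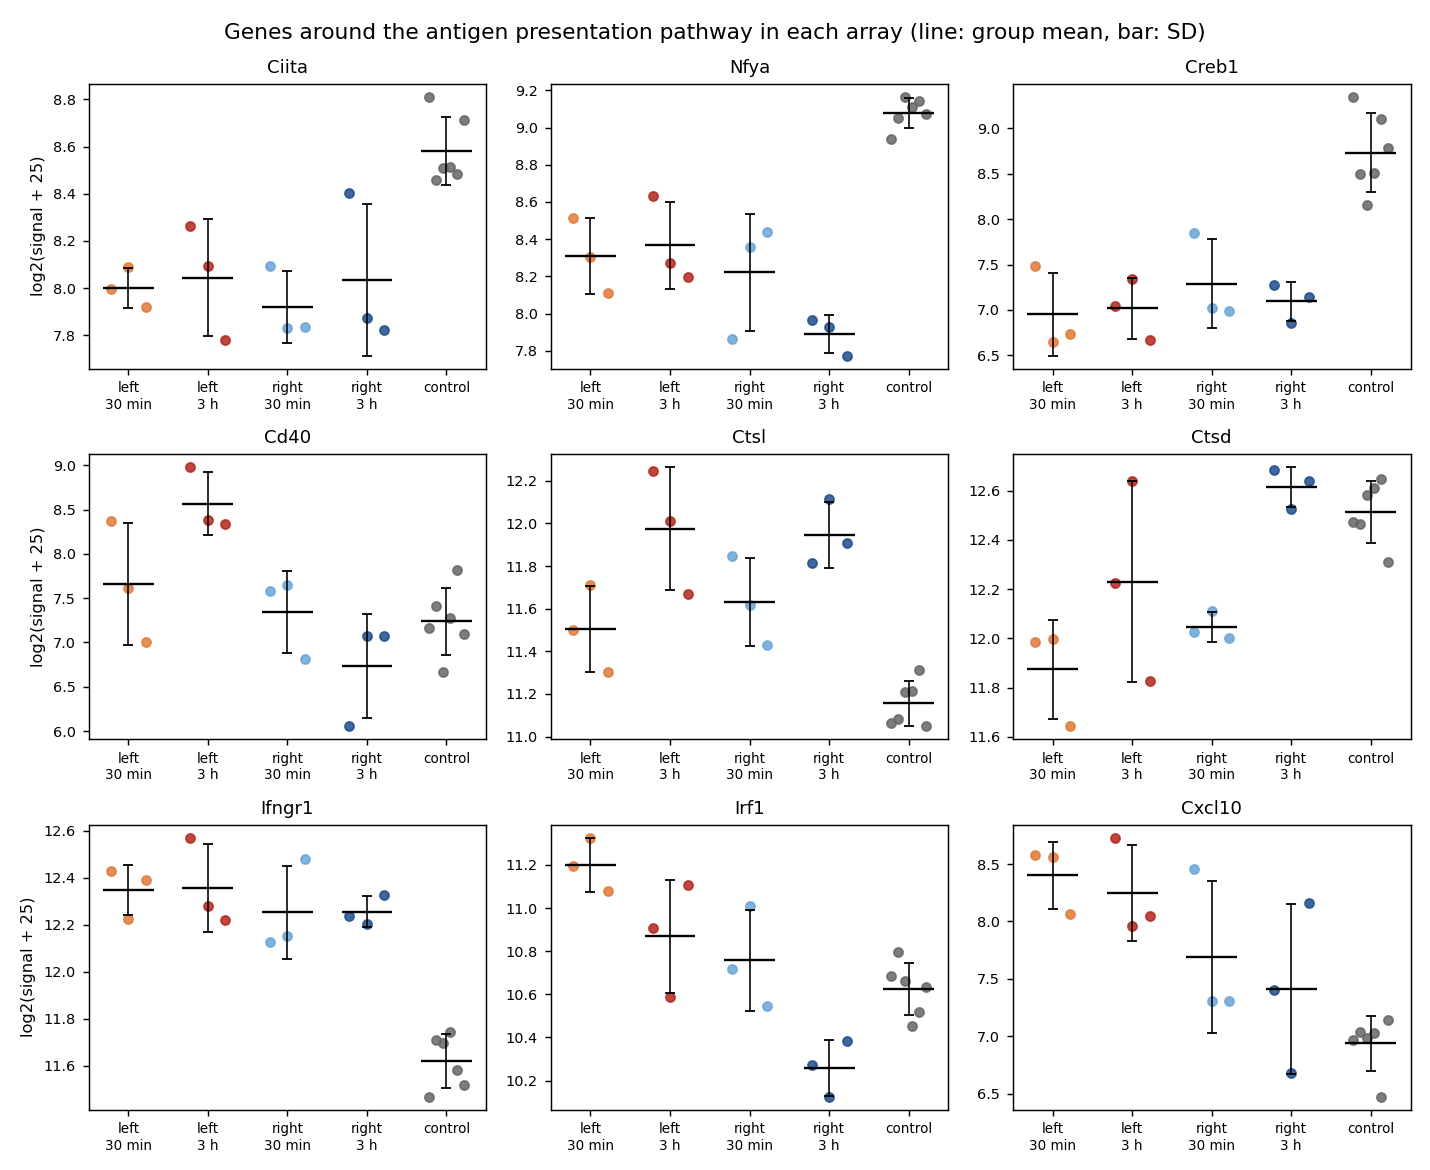
Signal of 9 genes of the class II and interferon lists in each array, as log2(signal + 25), with left 30 min, left 3 h, right 30 min, right 3 h and control lungs from left to right. Points are arrays, lines are group means and bars are SDs, and the scale differs between panels. Ciita, Nfya and Creb1 lie below, and Ifngr1 above, every control in all 12 operated lungs, and Cd40 is highest in left lungs at 3 h.

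On the class I route 19 of 29 further genes were measured and few passed the test. Fcgrt, the class I-like receptor that also uses B2m, read 1050, 906 and 853 in left lungs at 30 min and 743, 1051 and 959 in left lungs at 3 h, against 1293 to 1534 in control lungs. It fell, with log2 differences of -0.55 ± 0.11 (adjusted p = 0.00312) and -0.59 ± 0.11 (adjusted p = 0.000931), with no overlap, the first ending without the arrays of high actin ratio. Right lungs read 1022, 1166 and 1202 at 30 min, also below every control, and 1199, 1330 and 1117 at 3 h. Neither right lung group was called for Fcgrt. Calr, the chaperone calreticulin, read 4097, 4344 and 3838 in left lungs at 3 h and 2286, 3008 and 2938 in left lungs at 30 min, a difference of 0.58 ± 0.12 (adjusted p = 0.0152) that ended without left 3 h replicate 1 or 2 or left 30 min replicate 1 (0.46 to 0.58) and without the arrays of high actin ratio (0.44, adjusted p = 0.426). Against control, at 3050 to 3491, it rose by 0.34 in left lungs at 3 h (adjusted p = 0.013), which ended without left 3 h replicate 2 (0.30) and under quantile normalization. RT1-S3, a class I gene outside the classical set, fell at -0.45 in left lungs at 3 h (adjusted p = 0.0258), which ended without control replicate 6 or left 3 h replicate 1 (-0.39 to -0.28), with arrays centred on their median and when the probe sets of a gene were averaged (-0.15, adjusted p = 0.438).

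Erap1, which trims peptides for class I, read 1027, 1090 and 1001 in right lungs at 3 h, against 1308 to 1720 in control lungs, a log2 difference of -0.56 ± 0.11 (adjusted p = 0.0027). Pdia3, a chaperone of the loading complex, fell at -0.43 in right lungs at 30 min (adjusted p = 0.0106), ending without right 30 min replicate 3 (-0.34) and when the probe sets of a gene were averaged. In all, 0 rose and 1 fell in left lungs at 30 min, 1 rose and 2 fell in left lungs at 3 h, and 1 fell in right lungs at each time. Over all genes, 18.2% and 37.6% were called in left lungs at 30 min and 3 h, and 12.3% and 20.4% in right lungs. Between left and right lungs 0 of 19 were called by limma at either time, with 2 at 30 min and 3 at 3 h at an unadjusted p under 0.05. Over all genes, 0.0518% were called between left and right lungs at 30 min and 2.37% at 3 h. The list medians were -0.11, -0.14, 0.03 and -0.18 in left 30 min, left 3 h, right 30 min and right 3 h lungs, beside the medians over all genes given above.

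Of the interferon gamma signalling list 17 of 30 genes were measured, and those that passed the test against control rose, except 1 in left lungs at 3 h. In left lungs 8 rose and 0 fell at 30 min, where 8.64% of all genes rose, and 9 rose and 1 fell at 3 h, where 13.5% rose. In right lungs 4 rose and 0 fell at 30 min, where 5.93% of all genes rose, and 3 rose and 0 fell at 3 h, where 7.75% rose. At an unadjusted p under 0.05 by limma, 3 were higher and 4 lower in right lungs at 3 h. Between left and right lungs 0 of 17 were called by limma at 30 min, with 2 at an unadjusted p under 0.05, and 1 of 17, Irf1, at 3 h, with 5. Over all genes, 0.0518% were called between left and right lungs at 30 min and 2.37% at 3 h. The list medians were 0.57, 0.62, 0.27 and 0.11 in left 30 min, left 3 h, right 30 min and right 3 h lungs. Ifngr1, the ligand-binding chain of the interferon gamma receptor, read 4452 to 6059 over the 12 operated lungs, against 2808 to 3405 in control lungs. It rose by 0.73, 0.74, 0.63 and 0.64 ± 0.11 (adjusted p at most 0.0012), and its groups did not overlap. Ifngr2, its partner chain, rose by 0.77 ± 0.16 in left lungs at 3 h (adjusted p = 0.00148).

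Irf1, the factor through which interferon raises Tap1 and the class I genes, read 2318, 2544 and 2137 in left lungs at 30 min, against 1378 to 1751 in control lungs, a rise of 0.58 ± 0.13 (adjusted p = 0.0046). At 3 h it read 1895, 1515 and 2184 in left lungs, against 1211, 1091 and 1309 in right lungs, with no overlap. That difference of 0.61 ± 0.15 passed at an adjusted p of 0.0384 by limma. The call ended without left 3 h replicate 1 or 3 or right 3 h replicate 1 or 2 (0.49 to 0.62). It also ended without the filter and under quantile normalization. Right lungs at 3 h lay below every control, and left lungs at 3 h overlapped the controls. Neither of these groups was called against control. Cxcl10, an interferon-induced chemokine, rose in left lungs by 1.46 ± 0.29 at 30 min (adjusted p = 0.00221) and 1.31 ± 0.29 at 3 h (adjusted p = 0.0023). It read 243 to 357 and 224 to 400 there, against 64.0 to 116 in control lungs. Every control lay below the filter signal of 173.5608, so Cxcl10 was tested through its values in operated lungs.

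Mx2, an interferon-induced antiviral gene, rose at 30 min in both lungs and was lower at 3 h than at 30 min in both. It read 539, 514 and 568 in left lungs at 30 min and 170, 161 and 209 in left lungs at 3 h, against 205 to 374 in control lungs. It was the 1 gene of the list that fell in left lungs at 3 h against control, at -0.58 (adjusted p = 0.0359). That call ended without control replicate 2, 3 or 4 or left 3 h replicate 1 or 2 (-0.56 to -0.50), under both other scalings, without the filter and without the arrays of high actin ratio. It rose by 0.89 ± 0.21 in left lungs (adjusted p = 0.00605) and 0.96 ± 0.21 in right lungs (adjusted p = 0.00581) at 30 min, the second ending without right 30 min replicate 1 (0.69). At 3 h it was lower than at 30 min, with a log2 difference of -1.47 ± 0.24 in left lungs (adjusted p = 0.00337). In right lungs the difference was -1.22 ± 0.24 (adjusted p = 0.0428), which held without right 30 min replicate 2 and ended without any other single array (-1.40 to -0.96), without the filter, with arrays centred on their median and on leaving out the high actin arrays. The left lung call held without each single array and ended on leaving out the high actin arrays.

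Socs3, an inhibitor of cytokine signalling, rose by 1.92 ± 0.29 in left lungs at 3 h (adjusted p = 0.000109) and 1.43 ± 0.29 in right lungs at 3 h (adjusted p = 0.00233). At 30 min it rose by 1.08 in left lungs and 1.10 in right lungs, ending without left 30 min replicate 2 (0.92) and right 30 min replicate 1 (0.63). The left 30 min calls of Socs3, Mx2 and Ciita ended without the arrays of high actin ratio. Jak2, the receptor's kinase, rose by 0.96 ± 0.21 in left lungs (adjusted p = 0.00203) and 0.85 ± 0.21 in right lungs (adjusted p = 0.00877) at 3 h, the right lung call ending without right 3 h replicate 3 (0.66). Ifit3, an interferon-induced gene, rose by 1.26 in left lungs at 30 min, 1.33 in left lungs at 3 h and 1.10 in right lungs at 30 min. These calls ended without left 30 min replicate 1 or 2 (0.87 to 1.13), left 3 h replicate 1 (0.95), and control replicates 1, 3, 4 or 5 or right 30 min replicate 1 or 2 (0.85 to 1.13), the right lung call also without the filter. Of 7 measured neutrophil markers, 4 rose in each of the 4 groups, beside the shares of all genes given above. One, Cxcr1, fell in left lungs at 30 min (-0.82) and 3 h (-0.51) and in right lungs at 30 min (-0.51), and was named after its values were seen. The summed signal of the 7 was 5549 to 22719 over operated lungs, against 1526 to 3663 in control lungs. The part of neutrophils in the interferon values was not tested.

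The genes whose signal followed Cd74 and Tap1 most closely over the 18 arrays were found by Pearson's r, given as a description because all arrays share groups and scaling. For Cd74 they were Txnip (0.82), Dym (0.81), Pdk2 (0.81), Slc5a6 (0.81) and Mfsd6 (0.81), and the same r after removing group means was between 0.79 and 0.83. For Tap1 they were Ets1 (0.85), Sde2 (0.82), Tnip1 (0.81), Ifnar2 (0.79) and Tmbim1 (0.79), with r between 0.56 and 0.76 after removing group means. The RT1 probe sets were given no such value.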

How the data were processed

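The authors deposited linear probe set signals (intensity) from 1-colour Affymetrix rat 230A arrays, and the submitters' processing notes name MAS5, with no version. The trimmed means (2% at each end) lie near 500.1 on all 18 arrays. GeneSpring 7.2 is named in the design text and was not used here. The 57 control probe sets of 15923 were left out. Of the others 12783 have 1 gene symbol in GEO's platform annotation, 312 several and 2771 none. Signals were analysed as log2(signal + 25) after keeping probe sets above 173.5608, the 40th percentile, on at least 3 arrays. limma 3.58.1 in R 4.3.3 was fitted on 5 group means over 18 arrays, and its code was tested on simulated data. Python 3.11.15 was used for other steps. The members and lists were chosen with earlier results of these data known. Cd74 was read by 1367679_at, RT1-Da by 1370883_at, Tap1 by 1388149_at, Tap2 by 1368732_at and Tapbp by 1369726_at. The other probe sets of the 9 members are named above. From the other lists, all called genes are named where at most 5 passed, otherwise the 6 of smallest adjusted p. Same-numbered left and right lungs correlated at 0.122, 0.307 and 0.146 at 30 min after removing group means. At 3 h they correlated at -0.165, 0.0663 and -0.151. An alternative fit used the replicate number as a block in every comparison between operated groups. The numbers were not taken as pairs at 3 h or over time, so the block is no check on calls there.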

Additional observations from a re-analysis of the deposited data

Results flagged for a closer look

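Among the 6 control lungs, 7 of 41 probe sets examined had 1 array standing apart from the other 5 by Dixon's test (critical value 0.625). Chance marks about 1 in 20 independent groups. These probe sets were all read on the same 6 lungs, so their count cannot be set against that rate. Control replicate 5 was the lowest in 5 of the 7. RT1-Bb 1371065_at read 49.2 there, against 1287 to 1973 in the other controls, and RT1-Ba 1377334_at read 84.3, against 951 to 2527. The interferon-induced genes Cxcl10, Ifit3 and Oas1a read 64.0, 183 and 350 in the same lung, against 100 to 116, 242 to 273 and 429 to 477. Control replicate 2 had the highest RT1-Db1 1370383_s_at, 3098 against 2011 to 2320. Control replicate 6 had the highest RT1-S3, 2708 against 2059 to 2142.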

How the results depend on the processing

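The calls of the 9 genes changed under leave-one-out settings only. In left lungs at 30 min the count was 0 to 1, with Tap1 called without control replicate 2 or 5. In left lungs at 3 h it was 0 to 1, the call of Tap2 ending without left 3 h replicate 1. Of 1179 member values under other settings 1176 kept their side of the threshold, and of 905 values of named pathway genes 761 did. The other 144 lost their call, and no called value changed sign. At 82 settings an uncalled difference changed sign. Over all genes, single arrays moved the calls by over 1.5 times. Against control there were 879, against 1404, without left 30 min replicate 1, 1633, against 2908, without left 3 h replicate 1, 504, against 947, without right 30 min replicate 1, and 986, against 1574, without right 3 h replicate 3. Between left and right at 30 min, 4 calls became 1 without left replicate 3, 15 without right replicate 1 and 2 without right replicate 3. At 3 h, 183 became 25 without left replicate 1, and 47, 80 and 364 without right replicates 1, 2 and 3. In left lungs over time, 237 became 35, 96 and 544 without 3 h replicates 1, 2 and 3, and 36 and 70 without 30 min replicates 1 and 3. In right lungs over time, 15 became 3 without 3 h replicate 1 or 2, 29 without 3 h replicate 3, 35 without 30 min replicate 1 and 0 without 30 min replicate 3. For left minus right at 3 h set against 30 min, 18 became 7 to 10 without left 30 min replicate 3, right 3 h replicate 1 or right 30 min replicate 2 or 3. Leaving out the 3 arrays of high actin ratio cut the calls in left lungs at 30 min to 433, against 1404, leaving 1 left lung, and the calls between left 3 h and 30 min to 15, against 237. A pseudocount of 100 gave 7 calls between left and right at 30 min, against 4. Without the filter there were 101, against 183, between left and right at 3 h, 115, against 237, in left lungs over time, and 6, against 15, in right lungs over time. In right lungs over time, leaving out the high actin arrays gave 0, against 15. The replicate block gave 0, against 4, between left and right at 30 min and 12, against 183, at 3 h. Over time it gave 5, against 237, in left lungs and 0, against 15, in right lungs. For left minus right at 3 h set against 30 min it gave 3, against 18. No member was called in these comparisons in the main fit, so the block had no member call to end, and it added none. Between left and right lungs at 3 h the blocked adjusted p by limma was 0.204 for Cd40 and 0.397 for Irf1. Same-numbered lungs at 3 h correlated at -0.165, 0.0663 and -0.151, and each lung correlated best with another number, so the numbers were not taken as pairs. Over time the blocked adjusted p was 0.226 for Calr and 0.055 for Mx2 in left lungs and 0.614 for Mx2 in right lungs. There the block joined lungs of the same side taken at 30 min and at 3 h, which cannot come from the same rat. Its counts and adjusted p over time therefore do not test those calls. Centring arrays on their median moved the split of higher and lower calls to 1349 and 1183 in left lungs at 3 h, against 1044 and 1864, to 553 and 373 in right lungs at 30 min, against 458 and 489, and to 863 and 656 in right lungs at 3 h, against 599 and 975. The causes were not tested. Groups of 3 lungs, and levels that differ widely within groups, limit what can be seen for RT1-Ba and RT1-Bb.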

Other observations

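Class I RT1 genes outside the 9 also split into levels, and are given as values, named after their values were seen. RT1-CE5 by probe set 1371209_at read 734, 1391 and 1.14 in left lungs at 3 h and 676, 4.33 and 275 in right lungs at 3 h, against 589, 549, 928, 879, 2.25 and 1017 in control lungs. All 6 lungs at 30 min were at 686 to 1152. Left 3 h replicate 3, right 3 h replicate 2 and control replicate 5 were near 0 by this probe set. The same arrays were the lowest of their groups by 1371210_s_at and 1388255_x_at of RT1-CE5. By 1370972_x_at, the probe set that represents RT1-CE5, they were again the lowest of their groups, but not near 0. RT1-CE16 by probe set 1370463_x_at read 36.4 to 56.6 in the 6 lungs at 30 min. It read 345, 71.1 and 488 in left lungs at 3 h and 43.8, 660 and 322 in right lungs at 3 h, against 649, 269, 107, 56.5, 322 and 81.9 in control lungs. Its 7 highest arrays were those of RT1-Bb 1371033_at.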
